A study of Mus musculus with 4 samples.

Results

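The cytosolic ribosomal protein genes are described here across 3 classes of mouse brain nuclei with and without Sox11 delivery. They were taken by name: every counted gene whose symbol starts with Rpl or Rps followed by a digit, together with Rpsa, Rplp0, Rplp1 and Rplp2, leaving out the Rps6k kinases, pseudogene symbols and paralogs with a further l. This gave 79 of 32285 genes, 46 with an Rpl and 33 with an Rps symbol. Rps19bp1, an Rps19-binding protein that is not a ribosomal subunit, and Rps27rt, an intronless retrogene copy of Rps27, entered by their names alone. The rule used names and no measured value, but it was set with earlier results of these data known.

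Single-nucleus RNA sequencing was done on brains of adult C57BL/6 mice in which neurons that project to the spinal cord had been reached by AAV2-Retro, a virus taken up at axon ends, from the cervical cord. The virus carried Sox11 or a control, tissue was collected 2 weeks later, and the labels give the treatment of the Control libraries as none. Nuclei carrying a virus-borne nuclear fluorophore were sorted (5000 and 7000 nuclei), and 2 libraries per group were made with a 3′ kit in which every molecule caught carries its own identifier (UMI). The labels do not say how many animals each library held, so p-values here reflect spread among the 4 libraries, which may be technical.

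The cytosolic ribosome has a small subunit, built around Rps proteins, and a large subunit, built around Rpl proteins, and each protein is made from its own gene. These mRNAs usually begin with a run of pyrimidines at the 5′ end, the TOP element, through which mTOR signalling sets their translation as a group. In neurons ribosomes lie in the cell body, dendrites and axons. A nuclear preparation sees their mRNAs as far as they are still in the nucleus, cling to it or are caught along with it.

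Start-site sequences were read from RefSeq promoter windows on GRCm38.p6, which 59 of the 79 genes had, in 69 windows. The stretches below run from 15 bases before to 15 bases after the annotated start. Capitals mark the longest run of C or T of at least 6 bases that reaches to within 10 bases of it. The runs of Rps12, 11 bases, and Rpl27a, 20 bases, go on past the stretch shown. Another window of Rps21, not shown, had no such run. Rpl15, Rps12 and Rps21 are shown because the comparisons below turn on them, Rps27 and its copy Rps27rt because their counts may be exchanged, Rpl27a as a long run, and Rpl11 as a window with none.
Rpl15 (chr14:18270972-18271001, minus strand): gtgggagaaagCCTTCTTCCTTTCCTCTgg
Rps12 (chr10:23787195-23787224, minus strand): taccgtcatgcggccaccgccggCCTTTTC
Rps21 (chr2:180257364-180257393, plus strand): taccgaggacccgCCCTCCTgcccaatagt
Rps27 (chr3:90213634-90213663, minus strand): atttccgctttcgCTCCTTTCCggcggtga
Rps27rt (chr9:114982725-114982754, minus strand): agaacttaTCCCTTgctttccggcggtgac
Rpl27a (chr7:109519180-109519209, plus strand): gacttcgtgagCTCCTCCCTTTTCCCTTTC
Rpl11 (chr4:136053379-136053408, minus strand): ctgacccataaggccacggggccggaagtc

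Such a run was present for 36 of the 59 genes, 61.0%, or in 53.6% of their 69 windows, against 29.2% of all 32851 windows. CCGGAAG, a form of the site bound by Ets factors and GABPA, was found on either strand in 36.2% of member windows and 8.86% of all windows. CTCTTTC was found in 30.4% against 8.16%, and CTTTCC, which can overlap it, in 50.7% against 26.6%. GCCATC stood in 24.6% of member windows against 14.1% of all, TATAAA in 8.70% against 13.6%, and CCAAT in 30.4% against 37.4%. These shares describe letters in windows and not binding. Genes without an entry included Rpl17, Rpl21, Rpl23a, Rpl29, Rpl3, Rpl30, Rpl32, Rpl36, Rpl7, Rpl8, Rplp1, Rps14, Rps20, Rps27a and Rps29.

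All 79 genes were placed on mm10 by GENCODE M21. They lay on 19 chromosomes, with at most 14 on one, and were short, with a median span of 3289 bases against 12298 for all counted genes. A small nucleolar RNA lay inside 30 of them, and 22 overlapped another counted gene, whose reads cannot be told apart where the counting ignored strand. The transcripts of Rps27 and Rps27rt were identical over all 341 aligned bases, so their counts are uncertain, whereas Rps27l, left out by the name rule, matched Rps27 at 77.4% of 257 aligned bases. GENCODE lists 289 pseudogenes named after these genes, of which 5 were in the count tables, and none of the 5 passed the filter on low counts.

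Nuclei with at least 1000 detected genes were sorted into classes by a few UMIs. Cortical nuclei had Slc17a7 and 1 of Fezf2, Bcl11b or Crym, subcortical nuclei had Slc17a6 and no Slc17a7, and oligodendrocyte nuclei had at least 3 UMIs of Mog, Mag and Mobp. In the order Control 1, Control 2, Sox11 1, Sox11 2, there were 1240, 969, 1424 and 1807 cortical, 965, 757, 398 and 1125 subcortical, and 45, 18, 15 and 57 oligodendrocyte nuclei. Markers not used by the class rules sorted by class: 4 cortical markers summed to 155 to 197 counts per 1000000 UMIs (CPM) in cortical and 6.52 to 15.8 in subcortical nuclei, and 7 subcortical markers to 43.3 to 55.0 and 506 to 633. The myelin protein gene Mbp stood at 558 to 1750 CPM in the oligodendrocyte class and at 46.9 to 61.4 in cortical nuclei. CPM values are scaled by the plain total of a sum, whereas log2 changes use edgeR's TMM factors. Library pairs shared 0 to 3 barcodes. The counted Sox11 gene stood at 2.88, 3.48, 3.72 and 3.22 CPM in cortical nuclei, with no gap between the groups, while Gpc2, which earlier results of these data had found raised, stood at 0.232, 0.326, 30.4 and 16.3. The file headers name Cell Ranger 7.1.0 in Control 1 and Control 2, but 7.2.0 and 8.0.0 in the Sox11-labelled libraries, so that version and group cannot be told apart.

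In cortical nuclei the 79 genes together gave 1109 and 1225 CPM in the Control and 1059 and 1011 CPM in the Sox11-labelled libraries, about 0.1% of all UMIs. Subcortical nuclei had 1736 and 1975 CPM in Control and 1353 and 1484 in Sox11-labelled libraries, and were above the cortical nuclei of the same library in all 4, by 1.57, 1.61, 1.28 and 1.47 times. Oligodendrocyte nuclei were higher again in all 4 libraries, at 3536, 2991, 3389 and 2301 CPM. The mean number of ribosomal protein UMIs per nucleus overlapped between the neuron classes: it was 19.3, 23.3, 24.6 and 20.3 in cortical and 18.9, 26.4, 26.2 and 20.9 in subcortical nuclei. Every cortical, subcortical and oligodendrocyte nucleus had at least 1 such UMI. Total UMIs differed much more, with cortical medians of 14837, 16245, 20859.5 and 16613 and subcortical medians of 9262, 11297, 17229.5 and 11363.

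**Figure D1:**
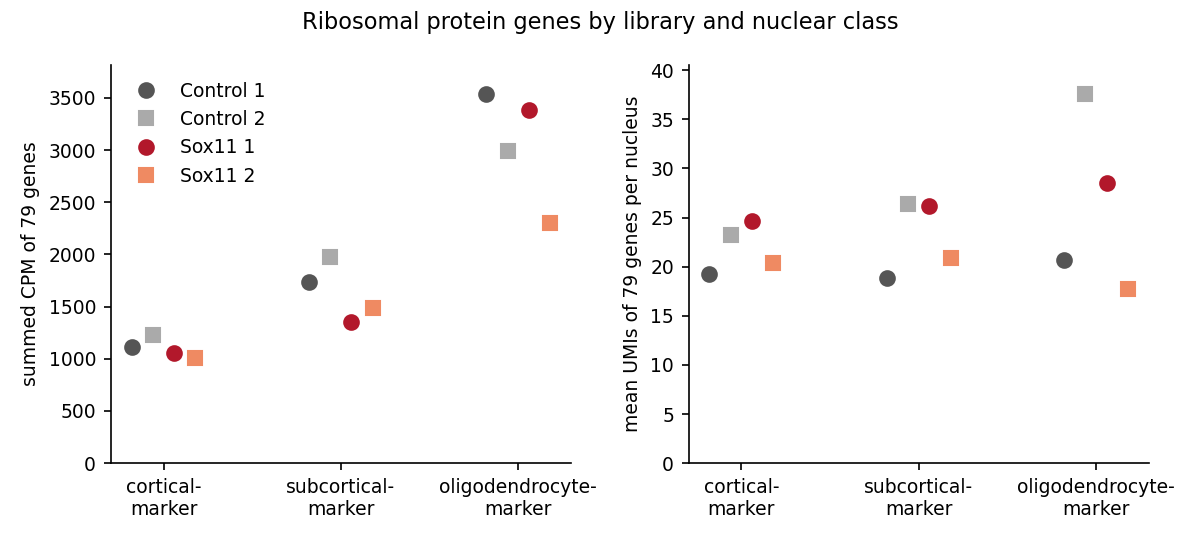
Left, summed CPM of the 79 ribosomal protein genes in each library (Control 1 and 2, grey; Sox11 1 and 2, red and orange) and nuclear class; right, the mean number of their UMIs per nucleus. The CPM rises from cortical (1011 to 1225) through subcortical (1353 to 1975) to oligodendrocyte nuclei (2301 to 3536), while the UMIs per nucleus of the neuron classes overlap at 18.9 to 26.4.

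Ribosomal protein UMIs grew more slowly than the depth of the nucleus. In cortical nuclei of Control 1 the mean number was 12.7 in nuclei below 5000 UMIs (59 nuclei) and 25.6 in nuclei of 30000 UMIs or more (155 nuclei), while the CPM fell from 3368 to 659. In subcortical nuclei of Sox11 2 the mean rose from 9.79 to 39.8 across the same bins and the CPM fell from 2866 to 1036. Over nuclei of 1 class and library, Spearman's rho between total UMIs and the ribosomal protein share was -0.77 in Control 1 and -0.65 in Control 2 and Sox11 1 cortical nuclei, a description in which both measures share the total. In barcodes with under 1000 genes, which were left out of the classes, the 79 genes had 9989, 20562, 9137 and 5717 CPM, although they held only 8.46, 20.4, 8.51 and 6.14 UMIs each. Control 2 subcortical nuclei were an exception to the fall in 1 step, with 1727 CPM at 15000 to 20000 UMIs and 1775 at 20000 to 30000. The SD of ribosomal protein UMIs per nucleus was 11.5 in the former bin and 50.7 in the latter. The highest nucleus of that class and library held 521 such UMIs. Depth differed between the classes together with the CPM of these genes, and Sox11 1 was the deepest library in both neuron classes. In each neuron class the median totals of both Sox11-labelled libraries were above those of both Control libraries.

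**Figure D2:**
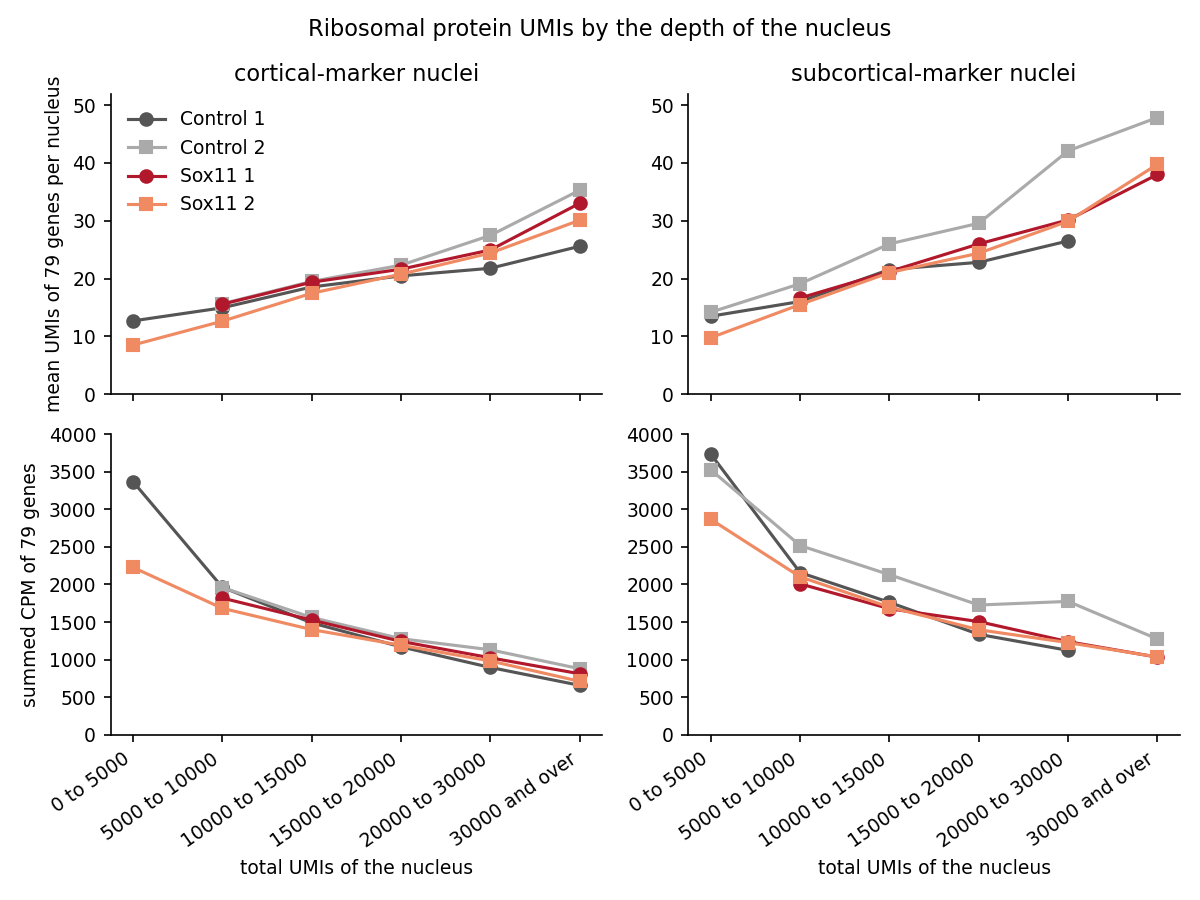
Mean ribosomal protein UMIs per nucleus (top) and their summed CPM (bottom) by total UMIs of the nucleus, for cortical and subcortical nuclei in each library, in bins with at least 20 nuclei. Counts rise with depth, and the CPM is lower in the deepest than in the shallowest bin of every library and class, as from 3368 to 659 in cortical nuclei of Control 1.

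Within nuclei of 10000 to 15000 UMIs, a band added after the data were seen, the cortical sums were 1490 and 1561 CPM in Control and 1527 and 1400 in Sox11-labelled libraries. Those groups overlapped. The subcortical sums were 1762 and 2130 against 1678 and 1699, with both Sox11-labelled libraries below. In plain-total CPM, subcortical nuclei stayed above cortical nuclei of the same library, by 1.18, 1.36, 1.10 and 1.21 times. The direction depended on the scaling. With TMM factors in the same band, the member median of cortical over subcortical was 0.10 on the log2 scale, against -0.01 for all genes. Smaller classes with at least 20 nuclei were not limited to the band. Noradrenergic nuclei of Control 1 and Control 2 had 1733 and 1641 CPM, and inhibitory nuclei had 1847, 2127, 1492 and 1489 CPM in the 4 libraries. All were above the cortical sums over all depths, which were 1109, 1225, 1059 and 1011 CPM. Subcortical nuclei with at least 2 Pou4f1 UMIs, 31 nuclei of Sox11 2, had 1217 CPM.

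The first comparison set Sox11-labelled against Control libraries in cortical nuclei. No ribosomal protein gene passed the test: 0 of 79 had an adjusted p under 0.05 by edgeR's quasi-likelihood test, where 2.24% of the 17521 genes tested did (1.71% higher, 0.531% lower). DESeq2 also called 0 members, where it called 4.89% of all genes. An unadjusted p under 0.05 was reached by 9 members in edgeR (11.4% of members, against 18.0% of all genes tested) and by 10 in DESeq2. The log2 change was below 0 for 69 of the 79, 87.3% against 49.6% of all genes, with a median of -0.27 against 0.00. Large subunit genes had a median of -0.30 (42 of 46 below 0) and small subunit genes of -0.24 (27 of 33). In CPM, both Sox11-labelled libraries lay below both Control libraries for 44 of the 79, against 22.5% of all genes tested, and above for 6, against 26.3%. The other 29 overlapped. The summed level was 11.3% lower, 1035 ± 34 CPM (SD, n = 2) against 1167 ± 82, and with 2 libraries per group the smallest two-sided exact permutation p is 0.333. Ribosomal protein UMIs per nucleus were 22.5 ± 3.0 (SD, n = 2) against 21.3 ± 2.8 in Control. At 10000 to 15000 UMIs the summed level was 4.05% lower. The part of depth was not tested. Among summed markers of other cells, 4 markers of oligodendrocyte precursors gave 2.97 and 3.53 CPM in Control against 29.9 and 27.4. That rise was in Vcan and not in the set as a whole. Vcan, the only one that passed the filter on low counts, gave 2.46 and 2.77 against 29.6 and 26.8. The 4 inhibitory markers gave 3.90 and 3.15 against 1.84 and 1.76. Their part in the result was not tested.

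Among large subunit genes, Rpl6 stood at 55.2 and 66.0 CPM in Control and 71.1 and 61.8 in Sox11-labelled cortical nuclei, with overlapping groups. Divided by kilobases of annotated exon, Rpl38 came first at 31.4 CPM, Rpl36 had 30.5, Rpl6 20.2, Rps27 23.7 and Rpl41 19.9, while Rpl27a had 11.3 and Rpl11 7.26. These quotients depend on the annotated length and are not levels, since UMIs count molecules. In mean cortical CPM, Rpl6 had 63.5 and Rpl38 17.0. Rpl35a stood at 13.1 and 14.7 CPM in Control and 9.09 and 8.95 in Sox11-labelled nuclei. Its groups did not overlap, with a log2 change of -0.64 ± 0.20 (SE, edgeR adjusted p = 0.144). Rpl9 was similar, at 29.0 and 28.5 against 17.3 and 23.6 CPM. Rpl3, which lies at the peptidyl transferase centre, had 16.8 and 20.3 CPM against 13.2 and 15.2. Rpl22, an RNA-binding protein outside the catalytic core, was level at 14.6 and 14.6 against 14.4 and 14.7 CPM.

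The stalk proteins Rplp0, Rplp1 and Rplp2, which recruit translation factors to the large subunit, were all below 0 on the log2 scale in cortical nuclei. Rplp2 had 12.2 and 14.8 CPM in Control and 7.04 and 11.04 in Sox11-labelled nuclei, and Rplp1 had 9.84 and 9.67 against 8.88 and 8.09. Rplp0, at 3.76 and 4.73 against 3.84 and 3.19 CPM, overlapped between groups. Without the library Sox11 2, Rplp2 (log2 change -0.98, edgeR adjusted p = 0.0498) and Rpl24 (-0.90, 0.0481) passed below and Rps12 (0.90, 0.0308) above the Control libraries. Those 3 were 3.80% of members, where 6.09% of all genes passed at that setting.

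Among small subunit genes the lowest log2 change was that of Rps21, which lies at chr2:180257377-180258445. Its CPM was 15.2 and 22.7 in Control and 11.3 and 12.03 in Sox11-labelled cortical nuclei, a log2 change of -0.71 ± 0.22 (SE, edgeR adjusted p = 0.142). Rps27a, whose product is a fusion of ubiquitin and a ribosomal protein, had 15.9 and 13.9 against 8.19 and 10.5 CPM. In both genes the groups did not overlap. Fau, which encodes a fusion of a ubiquitin-like and a ribosomal protein and was listed apart, had 22.3 and 21.5 against 13.4 and 17.4 CPM. Rack1, a scaffold on the small subunit, differed little, with 8.49 and 7.94 against 8.16 and 7.02 CPM.

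A log2 change above 0 was found for 10 members in cortical nuclei, and in 6 of them both Sox11-labelled libraries were above both Control libraries. Rps12 (chr10:23785183-23787275, with 3 small nucleolar RNAs inside it) had 13.5 and 15.9 CPM in Control, 28.3 in Sox11 1 and 18.2 in Sox11 2. Its log2 change was 0.64 ± 0.23 (SE, edgeR adjusted p = 0.197). Rpl15, a large subunit protein, stood at 22.9 and 20.4 CPM in Control and at 37.9 and 26.6 in the Sox11-labelled libraries (log2 0.54 ± 0.21, edgeR adjusted p = 0.216). In both genes Sox11 1 was the high library. Rps26, Rpl23a, Rpsa and the sparsely counted Rps27rt, at 0.278 and 0.326 against 0.665 and 0.523 CPM, made up the 6. Rps27 itself varied more within groups than between them, at 17.4 and 27.2 against 34.99 and 19.2 CPM. Rps19bp1 had 2.60 and 2.83 against 2.36 and 2.34 CPM.

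**Figure D3:**
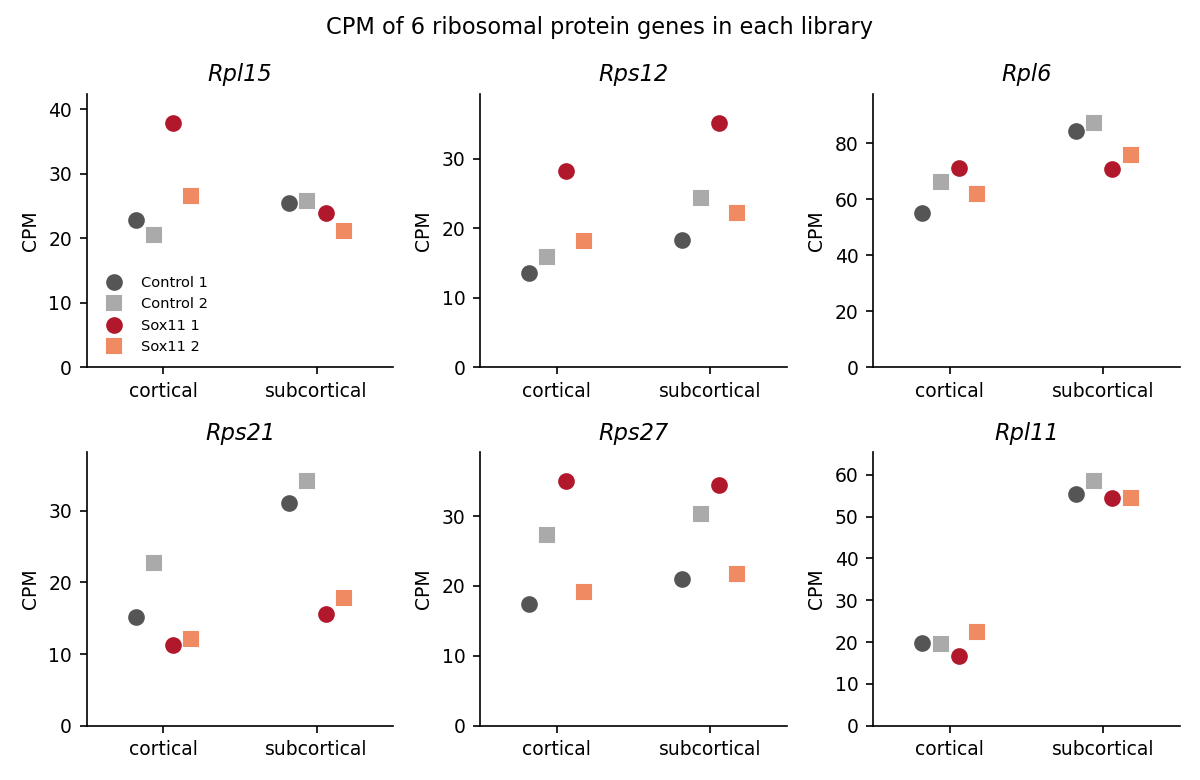
CPM of 6 ribosomal protein genes in cortical and subcortical nuclei, 1 point per library (grey, Control; red and orange, Sox11-labelled). Rpl15 is above both Control libraries in cortical nuclei only, at 37.9 and 26.6 CPM, Rps21 is below them in both classes, and Rpl11 separates the classes at 16.6 to 22.4 against 54.3 to 58.4 CPM.

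In subcortical nuclei no member passed either. Of 78 genes tested, Rps27rt having failed the filter on low counts, 75 had a log2 change below 0, 96.2% against 49.3% of all genes, with a median of -0.37 against 0.00. Both edgeR and DESeq2 called 0 members, where edgeR called 0% and DESeq2 0.0184% of all 16287 genes. An unadjusted p under 0.05 was reached by 23 members in edgeR (29.5%, against 5.75% of all genes tested) and by 18 in DESeq2. Whether these shares differ between the classes was not tested. Both Sox11-labelled libraries were below both Control libraries for 56 of the 78, against 21% of all genes tested, and above for 0, against 14.5%. The summed level was 1419 ± 92 CPM (SD, n = 2) against 1856 ± 168 in Control, 23.6% lower. The Sox11-labelled nuclei were deeper, with medians of 17229.5 and 11363 UMIs against 9262 and 11297. Ribosomal protein UMIs per nucleus were 23.5 ± 3.8 (SD, n = 2) against 22.6 ± 5.3 in Control. At 10000 to 15000 UMIs the summed level was 13.3% lower. The part of depth was not tested. Cortical markers moved with the group here, with 4 of them summing to 9.53 and 6.52 CPM in Control and 11.4 and 15.8 in Sox11-labelled nuclei, and 10 of 11 mitochondrially encoded genes had a log2 change below 0 (median -0.35). Their part in the result was not tested.

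Rps21 again had the lowest log2 change, -0.92 ± 0.19 (SE, edgeR adjusted p = 0.694), with 31.1 and 34.1 CPM in Control and 15.6 and 17.8 in Sox11-labelled nuclei. Rpl38 had 29.5 and 29.0 against 16.7 and 16.4 CPM, and Rpl8, whose product lies near the catalytic centre, 23.0 and 32.5 against 12.5 and 17.6. Groups of these 3 genes did not overlap. Rpl6 had 84.5 and 87.3 CPM in Control and 70.9 and 75.9 in Sox11-labelled nuclei, below Control in both libraries. Rps12, with 18.3, 24.4, 35.2 and 22.3 CPM, and Rps27, with 21.1, 30.2, 34.5 and 21.7, were the members with positive changes above 0.1, and both overlapped between groups with Sox11 1 highest.

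The ribosomal protein genes were not alone on this side. In cortical nuclei the 47 nuclear-encoded oxidative phosphorylation genes had a median log2 change of -0.48, with 47 of 47 below 0, the 78 mitochondrial ribosomal protein genes -0.16 (65 below 0), and 41 translation factors -0.12 (26 below 0). A list of 31 abundant cytosolic mRNAs had -0.22, in which Ckb, brain creatine kinase, fell by 1.02 on the log2 scale (84.0 and 96.6 against 43.8 and 46.5 CPM, edgeR adjusted p = 0.0167). The 57 ribosome biogenesis genes had a median of 0.00, with 1 gene higher and 1 lower. Fbl, the methyltransferase fibrillarin, rose from 20.8 and 27.2 to 56.9 and 45.8 CPM (edgeR adjusted p = 0.0282), and Taf1d, a factor of ribosomal RNA transcription, fell from 108 and 140 to 69.8 and 51.5 (0.0287). The list of 22 mTOR components and known regulators of ribosomal protein genes had a median of 0.07 and 0 calls by edgeR, with 1 at unadjusted p under 0.05. In subcortical nuclei the medians were -0.36 for oxidative phosphorylation, -0.20 for mitochondrial ribosomal proteins, -0.16 for translation factors and -0.08 for biogenesis, with no call in any of these lists. The 8 nuclear-retained RNAs had a cortical median of 0.03 with 4 above 0, and among them Malat1 stood at 147587 and 158053 CPM in Control and 79311 and 106887 in Sox11-labelled cortical nuclei. The part of depth, nuclear purity and software version in these shifts was not tested.

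**Figure D4:**
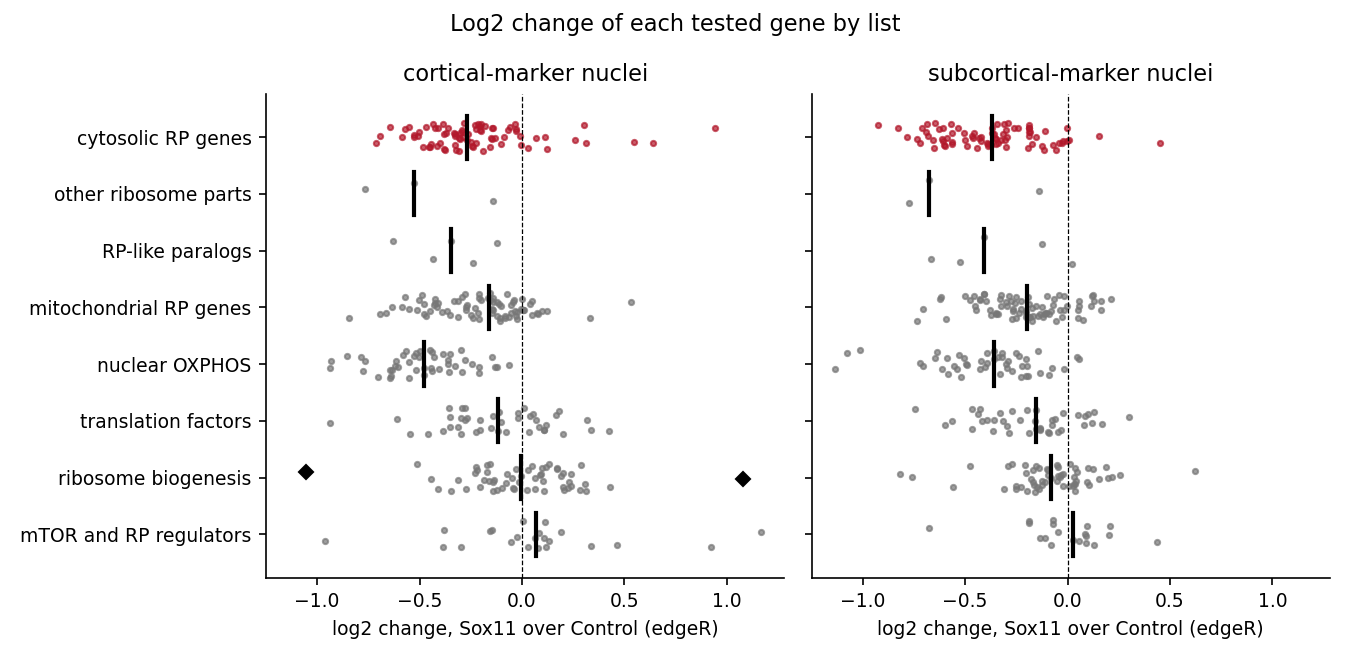
Log2 change of each tested gene, Sox11-labelled over Control libraries, by gene list in cortical (left) and subcortical (right) nuclei; bars mark medians and black diamonds genes with an edgeR adjusted p under 0.05. The 79 ribosomal protein (RP) genes centre at -0.27 and -0.37, next to oxidative phosphorylation (OXPHOS) genes at -0.48 and -0.36, and biogenesis genes at 0.00 and -0.08.

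Whether the Sox11 effect differed between cortical and subcortical nuclei was tested as an interaction over the 8 sums. Of 78 members 1 passed, Rpl15, where 4.06% of 18272 genes did (2.04% higher, 2.02% lower). The Rpl15 effect was 0.64 ± 0.15 (SE) higher on the log2 scale in cortical nuclei (edgeR adjusted p = 0.0352), since its subcortical CPM was 25.4 and 25.8 in Control and 23.9 and 21.2 in Sox11-labelled libraries. In each class the groups did not overlap, and they lay in opposite directions. The call was lost with DESeq2 on all 4 libraries (adjusted p = 0.251). By edgeR it was lost with stricter classes (adjusted p = 0.113), after thinning nuclei to 5000 UMIs (0.429) and at 10000 to 15000 UMIs (0.504). It was also lost without the library Sox11 1, a fit that left 1 library in that group. Rpl15 (chr14:18267823-18271391) overlaps Nkiras1 on the opposite strand, which went the other way in cortical nuclei, at 46.8 and 46.0 CPM in Control and 28.1 and 43.7 in Sox11-labelled libraries. The transfer of reads between the pair was not tested.

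Cortical and subcortical nuclei of the same libraries were compared with the library as a block. Of 78 members tested, 3 were higher and 20 lower in cortical nuclei, where 27.3% and 28.1% of all 18272 genes were, 55.4% in all. The median member change was -0.16 against -0.03. Rpl11, which binds 5S RNA and can hold back Mdm2, stood apart: its CPM was 55.3, 58.4, 54.4 and 54.3 in subcortical and 19.7, 19.6, 16.6 and 22.4 in cortical nuclei. The classes did not overlap in any library, and the log2 change was -1.10 ± 0.09 (SE, edgeR adjusted p = 2.0e-05). Its annotated span of 25164 bases (chr4:136028265-136053428) is far longer than the median of the members, though that of Rps14 is longer still, at 31449 bases. The part of span in the class difference was not tested. Rpl30 followed, with 33.6, 36.8, 32.6 and 35.9 CPM in subcortical and 15.5, 18.5, 15.7 and 16.4 in cortical nuclei (-0.66 ± 0.07, edgeR adjusted p = 0.000126). Rpl32 (-0.65), Rpsa (-0.51), Rps26 (-0.50), Rpl34 (-0.45), Rps9 (-0.41), Rpl8 (-0.39), Rps27a (-0.38) and Rpl36 (-0.37) were the next lowest among the calls.

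With TMM scaling the 3 genes called higher in cortical nuclei were Rpl15 (0.54), Rps18 (0.32) and Rps27 (0.27), but with plain library totals, which moved the median of all genes from -0.03 to -0.44, their values were 0.13, -0.09 and -0.14. The signs of the latter pair are thus set by the scaling of all genes alike. With plain totals 0 members were higher and 73 lower, where 13.5% and 57.1% of all genes were, and the member median was -0.58. TMM, edgeR's default scaling, had set factors of 1.13 to 1.20 on the subcortical and 0.84 to 0.89 on the cortical sums. In nuclei of 10000 to 15000 UMIs, 3 members were higher and 2 lower, where 20.5% and 20.3% of 13818 genes were, with a median of 0.10. Rpl11 (-0.79 ± 0.12) and Rpl30 (-0.50 ± 0.15) were the 2 still called lower there, with edgeR adjusted p of 0.000269 and 0.0221.

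**Figure D5:**
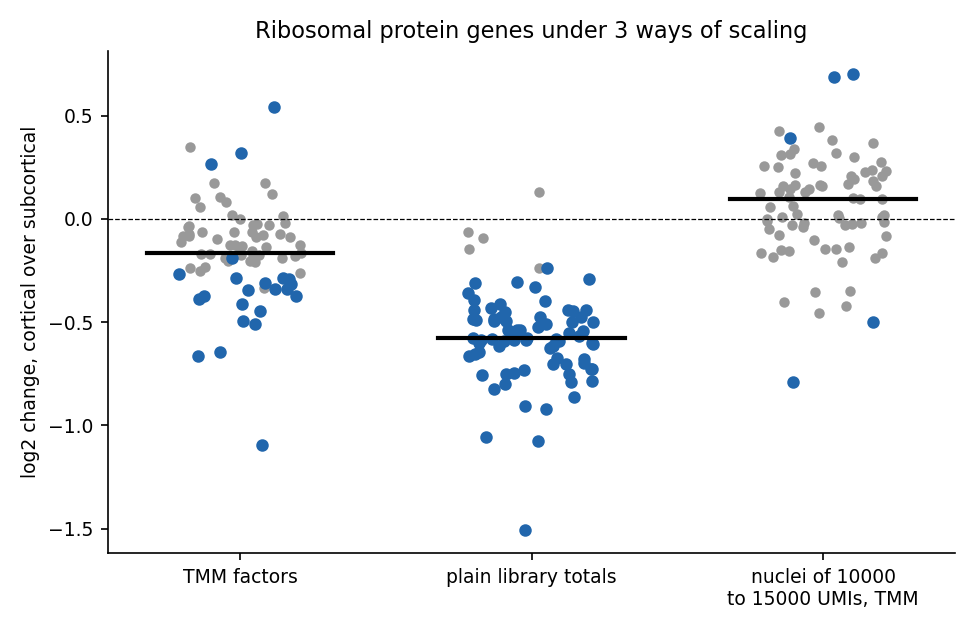
Log2 change of each ribosomal protein gene, cortical over subcortical nuclei, with TMM factors, with plain library totals and within nuclei of 10000 to 15000 UMIs; blue points have an edgeR adjusted p under 0.05 and bars mark medians. The median moves from -0.16 to -0.58 and 0.10, while the lowest point, Rpl11, stays at -0.79 or below.

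Nuclei of the oligodendrocyte class were above cortical nuclei in these genes, but the classes shared nuclei: 16 of 45, 7 of 18, 6 of 15 and 17 of 57 also met the rule of a neuron class, 2 to 5 per library that of the cortical class. Nuclei with a Slc17a7 or Slc17a6 UMI held 56.8% to 75.6% of the UMIs of the class. By edgeR 42 of 78 members were higher and 0 lower, where 9.6% of 16105 genes were higher and 13.5% lower (23.1% in all), and the median member change was 1.00 against -0.18. All 3 stalk genes were called: Rplp0 by 2.08 ± 0.49 (SE, edgeR adjusted p = 0.000166), Rplp1 by 1.48 and Rplp2 by 1.34. Rplp0 had 34.1, 22.1, 31.7 and 11.4 CPM in oligodendrocyte nuclei against 3.19 to 4.73 in cortical nuclei, but these rested on 9, 5, 4 and 5 UMIs. Small subunit genes included Rpsa (1.76), with 79.6, 31.0, 103 and 36.5 CPM, and Rps4x (1.89), with 41.7, 31.0, 31.7 and 43.4, against at most 12.9 and 8.15 CPM in cortical nuclei. Rpl37, Rpl18, Rpl28 and Rpl10 were higher by 1.69, 1.68, 1.65 and 1.59, and Rps3 and Rps29 by 1.71 and 1.59. The classes did not overlap in any of Rplp0, Rpsa and Rps4x. Without nuclei that had a Slc17a7 or Slc17a6 UMI, 32 members were higher and 0 lower, where 7.89% and 12.8% of genes were. Other lists were above cortical nuclei too: 8 of 10 mitochondrially encoded genes were higher (median 1.83), 14 of 31 cytosolic mRNAs (0.63, with 4 lower) and 9 of 47 oxidative phosphorylation genes (0.27). Of 78 mitochondrial ribosomal protein genes 0 were higher and 1 lower, with a median of 0.03.

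The oligodendrocyte nuclei were the shallowest class, with median totals of 3704, 7133, 3860 and 3813 UMIs, and held 20.7, 37.6, 28.5 and 17.7 ribosomal protein UMIs each. Neuron markers were present in them too, 4 cortical markers at 45.5 to 79.9 and 7 subcortical markers at 136 to 305 CPM, and in those with no Slc17a7 or Slc17a6 UMI the sums were 3760, 4868, 2782 and 3587 CPM. Nuclei under 5000 UMIs were a group added after the data were seen, with only oligodendrocyte nuclei free of Slc17a7 and Slc17a6 UMIs. There 9 members could be tested and edgeR called 0, with a median of 0.23, while it called 64.3% of the 1438 genes tested. Their sums were 5238, 6492, 2887 and 4836 CPM in oligodendrocyte against 3368, 2958, 19593 and 2227 in cortical nuclei. The cortical sum of Sox11 1 came from 7 nuclei, and its part in that median was not tested. In Sox11 1 a single oligodendrocyte nucleus with 198 ribosomal protein UMIs and 9.09% mitochondrial UMIs held 46.3% of the class sum. Without it the sum was 1854 and not 3389 CPM. Between Sox11-labelled and Control oligodendrocyte nuclei, edgeR and DESeq2 called 0 of 36 members tested, where 0% of 4776 genes were called. Unadjusted, 3 members were under 0.05 in edgeR (8.33%, against 2.83% of all genes tested) and 0 in DESeq2. Both Sox11-labelled libraries lay below both Control libraries for 13 of the 36, against 15.5% of all genes, and above for 1, against 15.1%. The summed levels overlapped, but only with the nucleus of 9.09% mitochondrial UMIs: at 5% or less they were 3536 and 2991 CPM in Control and 1854 and 2301 in Sox11-labelled libraries. Without nuclei that had a Slc17a7 or Slc17a6 UMI, both Sox11-labelled libraries were also below both Control libraries.

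Cortical nuclei of the Sox11-labelled libraries were also divided by whether they held a UMI of Gpc2, Zfp57 or Mex3a, genes that earlier results of these data had found raised there, after thinning each nucleus to 5000 UMIs. In Sox11 1 and Sox11 2, 451 of 1417 and 346 of 1678 nuclei did (31.8% and 20.6%), against 10 of 1181 and 3 of 955 in Control. The 79 genes summed to 1251 and 1310 CPM in nuclei with and 1103 and 1183 CPM in nuclei without such a UMI, higher with it in both libraries. Nuclei with such a UMI were shallower before thinning, with medians of 17694 and 15904 against 22260.5 and 18343.5 UMIs. Without thinning, the nuclei were divided anew by their full counts, and the member median was -0.03 in place of 0.12. The part of depth was not tested. By edgeR 0 of 78 members passed, where 11.4% of 12571 genes passed (5.6% higher, 5.81% lower). An unadjusted p under 0.05 was reached by 13 members in edgeR (16.7%, against 22.7% of all genes tested). DESeq2 called 0 members, where it called 1.70% of all genes, and 0 members were at unadjusted p under 0.05. Rpl35 was nearest, at 11.97 and 8.09 against 4.97 and 5.71 CPM (log2 0.86 ± 0.31, SE, edgeR adjusted p = 0.0547). Rpsa, the laminin receptor and small subunit protein, had 18.2 and 20.8 against 11.2 and 13.7 CPM. Rpl15, with 46.1 and 28.3 against 38.9 and 26.6 CPM, differed more between the libraries than between nuclei with and without a marker.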

How the data were processed

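Raw UMI counts for 4 libraries, a gene by barcode matrix each, were deposited by the authors. The submitters' processing notes name Cell Ranger 7.0.1 and mm10, and the file headers other versions. The use of intron reads and of strand was not given in the sources used here. Entries for the vector stayed out of every total. Genes and lists were chosen with earlier results of these data known. No doublet caller was run, and no correction was made for free RNA caught with the nuclei.

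Counts were summed per library and class, since nuclei are not replicates. Total UMIs per library were 40527479, 34215523, 45235380 and 61679959, and cortical sums held 18397959 to 36331084 UMIs. edgeR 4.0.16 in R 4.3.3 (glmQLFit, glmQLFTest, TMM, filterByExpr, two-sided, Benjamini-Hochberg over all genes tested, adjusted p under 0.05) was fitted to all genes, and DESeq2 1.42.0 as an alternative. The fits were tested on simulated data. Thinning used 5000 UMIs for neurons and 1500 for oligodendrocytes.

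Named were, by a fixed rule, up to 10 called members per direction and comparison by size of change, the 10 with the highest CPM in Control cortical nuclei (not scaled by length), up to 5 farthest on the side opposite to the median, and 11 others listed by name. Rpl24, Rpl35, Rpl35a, Rpl38, Rps21 and Nkiras1 were added after their values were seen. Other settings tried were size factors, filters, each library left out, replicate blocks, stricter classes and thinning. Protein sequences were not used here. Single values of some genes that this rule names are not reported here.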

Additional observations from a re-analysis of the deposited data

Results flagged for a closer look

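Rpl15 differed in its response between classes: the interaction of class and group was 0.64 in log2 units, with an SE of 0.15 and an edgeR adjusted p of 0.0352, and both Sox11-labelled libraries were above both Control libraries in cortical nuclei and below them in subcortical nuclei. Nkiras1, which overlaps it on the other strand, had an interaction of -0.46 (edgeR adjusted p = 0.0729), and the call of Rpl15 was lost under the settings given above. With 2 libraries per group no single library could be tested for standing apart.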

How the results depend on the processing

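Of 78 alternative counts of members called, 61 stayed within 1.5 times the reported count, where 0 against 0 was taken as staying. Many were such cases, since no member was called for Sox11 against Control in any class or in the marker split. For Sox11 against Control in subcortical and oligodendrocyte nuclei edgeR had called 0% of all genes, so those counts had little room to move. Leaving out 1 library gave 0 to 3 calls for Sox11 in cortical nuclei (3 without Sox11 2), 9 to 27 for cortical against subcortical nuclei (15 without Control 2, 9 without Sox11 2), 0 to 2 for the interaction (2 without Control 2, 0 without Sox11 1) and 32 to 40 for oligodendrocyte nuclei. Cortical against subcortical calls numbered 6 with no replicate block, 14 thinned, 73 with plain totals and 5 at 10000 to 15000 UMIs. At those settings 40.2%, 47.9%, 70.6% and 40.8% of all genes were called, against 7.69%, 17.9%, 93.6% and 6.41% of members. The interaction lost its 1 call, to 0, with DESeq2, stricter classes, thinning and that band, where 1.95% to 3.94% of all genes were called. Oligodendrocyte calls numbered 27 thinned, 64 with plain totals and 0 of 9 members tested under 5000 UMIs, where 24.4%, 23.9% and 64.3% of all genes were called. The marker split gave 2 (1 higher, 1 lower) without thinning, where nuclei were divided anew by their full counts. Those were 2.53% of members, against 29.1% of all genes. The labels do not tie replicate numbers to an animal, batch or day, and same-numbered deviations correlated at 0.05, -0.07 and 0.03 in the 3 classes. The replicate block gave 0 member calls in each Sox11 comparison, where 4.90% of all genes were called in cortical and 0% in subcortical and oligodendrocyte nuclei. Reversals among single values numbered 5. In Sox11 against Control cortical nuclei, leaving out 1 library gave Rps13 -0.47 to 0.093 (the latter without Sox11 2) and Rps27 -0.21 (without Sox11 1) to 0.61. In cortical against subcortical nuclei Rps18 went to -0.093 and Rps27 to -0.14 with plain totals, which moved all genes by about as much (all-gene median -0.03 to -0.44), and Rpl34 to 0.0073 in the band. The log2 ratio of summed levels, Sox11 over Control, moved in the band from -0.17 to -0.061 in cortical and from -0.39 to -0.20 in subcortical nuclei, cortical over subcortical from -0.56 to -0.28, and oligodendrocytes from -0.22 to -0.65 at 5% mitochondrial UMIs or less. Causes were not tested. The thinned nuclei left 1 member tested in oligodendrocytes between groups, so that comparison was limited by depth.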
